A study of Mus musculus with 39 samples.

Results

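The 31 genes described here make up the unfolded protein response of the endoplasmic reticulum (ER) and the integrated stress response, measured in the duodenum of mice given leptin or saline into the brain. They were taken by symbol from a list written with earlier results of these data known, and all 31 were among the 16358 genes of the count table. They comprise 14 ER chaperones and folding enzymes, 4 genes of ER-associated degradation, 6 sensors and transcription factors, and 7 genes known as targets of the transcription factors ATF4 and CHOP. The 39 libraries were of 4 groups. All mice were male wild-type C57BL/6 aged 8 weeks with a cannula in the right lateral ventricle, and all had food removed for 2 h. Saline-water (14 libraries) and Leptin-water (13) mice drank plain water, and Saline-antibiotic (6) and Leptin-antibiotic (6) mice drank ampicillin at 1 g/L with neomycin at 0.5 g/L for 48 h. Leptin (3 µg) or saline was then given through the cannula, and duodenum was taken 2 h later. The names of the libraries fall into 2 kinds, here set M (8 Saline-water and 7 Leptin-water) and set MT (6 of each of the 4 groups), and nothing in the labels ties a library to an animal of its own, so that p-values here measure only the spread between libraries.

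Secretory cells fold new proteins in the ER, and 3 sensors in its membrane respond when unfolded protein builds up there. IRE1 (genes Ern1 and, in mucus-secreting gut epithelium, Ern2) splices the Xbp1 transcript, and ATF6 is cleaved to a transcription factor; together they raise chaperones and the machinery that exports misfolded protein for degradation. PERK (Eif2ak3) phosphorylates the initiation factor eIF2, which slows translation while favouring that of ATF4, and other kinases that sense amino acid shortage feed the same step as the integrated stress response. Intestinal epithelium carries a steady secretory load and uses these pathways at rest. Most regulation of Xbp1, Atf6 and Atf4 is by splicing, cleavage and translation, which counts per gene do not read.

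Library totals ranged from 30207536 to 67870777 counts (median 48282125), and the members together took 0.387% to 0.572% of a library. The ribosomal transcript Rn45s took 2.87% to 13.3%. It took 13% of Saline-water 3, where the members' share was lowest, and 2.87% of Leptin-water 10, where that share was highest. In Saline-antibiotic 1, where Rn45s was highest at 13.3%, the members' share was 0.485%. The part of Rn45s in the spread of that share was not tested. The lowest count of a member was 5, for Chac1, and 30 of the 31 members had 10 counts or more in every library. Markers fit the labelled tissue: the 17 enterocyte genes had a mean of 9.96 to 10.9 log2 CPM (counts scaled to library size) per library. The 14 genes of Brunner gland and stomach varied far more, with a mean of 2.15 to 7.68 log2 CPM per library. In 6 libraries, namely Saline-antibiotic 1, 2 and 5, Leptin-antibiotic 3 and Leptin-water 6 and 10, the 22 pancreatic genes had a mean of 4.47 to 5.31 log2 CPM, against -2.59 to 2.59 in the other 33. The 22 genes differed in how often they were absent. Cpa1 and Try5, which encode pancreatic enzymes, were at 0 in 11 and 18 libraries. Clps and Cela1 of the same list were at 0 in 0 libraries, with lowest values of 6.39 and 2.66 CPM. Fewer cells of a type and less RNA per cell cannot be told apart in these bulk samples.

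The factors of the 2 branches are known to bind different short motifs, and the promoters that hold them are shown first. Motifs and members are both established parts of the same response, so the matches are a description and not an independent test. In the 250 bases upstream of the start sites given by RefSeq (GRCm38.p6), 27 of the 31 members had an entry. The ER stress response element, CCAAT and CCACG with 9 bases of any kind between them, on either strand, is the site that ATF6 binds together with the factor NF-Y. It stood in 7 of 12 chaperone promoters and 1 of 4 promoters of ER-associated degradation, in none of 4 among sensors and factors, and in none of 7 among ATF4 and CHOP targets. It is held by 0.13% of all 27025 gene symbols there. The capitals mark the motif, with 10 bases on each side, each printed in the direction that reads the motif 5′ to 3′.
Hspa5: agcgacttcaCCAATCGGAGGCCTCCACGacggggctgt
Hsp90b1: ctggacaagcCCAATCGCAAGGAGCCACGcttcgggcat
Hsp90b1, nearer the start: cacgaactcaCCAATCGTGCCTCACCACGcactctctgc
Dnajc3: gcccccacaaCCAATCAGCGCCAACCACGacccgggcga
Pdia6: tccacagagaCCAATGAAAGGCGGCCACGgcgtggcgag
Creld2: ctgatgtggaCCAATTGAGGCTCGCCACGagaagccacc
Calr: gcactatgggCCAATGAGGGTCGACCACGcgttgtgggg
Canx: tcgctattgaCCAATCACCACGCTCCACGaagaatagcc
Syvn1: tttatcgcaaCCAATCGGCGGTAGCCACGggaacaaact

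The Hspa5 element lies at chr2:34772025-34772043, 65 to 47 bases upstream of the RefSeq start. Gencode vM21 starts Hspa5 further upstream (chr2:34771970-34777547), so the element lies inside the gene by that annotation. A second form of the element, ATTGG and CCACG with 1 base between them, searched on either strand, was found in 1 member, Herpud1, at chr8:94386377-94386387, 52 to 42 bases upstream. It is held by 0.0304% of all 32851 promoters in the table.
Herpud1: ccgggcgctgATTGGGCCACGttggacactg
The C/EBP-ATF element, TGATGNAA on either strand, is the composite site that ATF4 binds with a C/EBP partner. It stood in Asns, Chac1 and Herpud1, and 3.45% of all promoters hold it, so Herpud1 carried letters of both kinds.
Asns: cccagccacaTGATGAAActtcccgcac
Chac1: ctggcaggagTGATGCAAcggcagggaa
Herpud1, second motif: gggtgcgggcTGATGCAAcccgccgtgg
The XBP1 core TGACGTGG was found in 0 of the 27, against 0.563% of all promoters. Dnajb9, Sel1l, Edem1, Ddit4 and Ppp1r15a, which are among the genes that changed below, held none of these 4 motifs in this window. A match is a string of letters and was not tested as a binding site.

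Per length, the 5 highest members were chaperones and the 5 lowest were ATF4 and CHOP targets, with much mixing between. The median of the members' median levels was 31.8 RPKM for the chaperones, 32.9 for ER-associated degradation, 12 for sensors and factors and 3.61 for ATF4 and CHOP targets. On the RPKM scale (CPM per kilobase of annotated exon), the median level over the 39 libraries was 195 for Calr, a calcium-binding lectin chaperone, 125 for Hspa5 (the central ER chaperone BiP), 110 for Hsp90b1 and 106 for the disulfide isomerase Pdia3. Calr ran from 162 to 337 over the libraries and Hspa5 from 92.7 to 192, so that these neighbours overlapped. In the order of the 31 medians, 2 pairs of neighbours did not overlap, namely Canx over Xbp1 and Ppp1r15a over Chac1. Xbp1 (61.6), Herpud1 (59.7) and Atf4 (54) followed, with ranges that overlapped. The sensors were lower, at 8.67 for Atf6, 7.95 for Eif2ak3 and 5.77 for Ern1, while Ern2 reached 15.3. Among the ATF4 and CHOP targets the medians ran from 0.44 RPKM for Chac1, a glutathione-degrading enzyme, to 10.4 for Ddit4, and Ddit3, which encodes CHOP itself, had 3.61. Ddit4 ranged from 5.92 to 36.5 RPKM over the libraries, whereas Atf6 ranged only from 7.8 to 9.43.

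**Figure D1:**
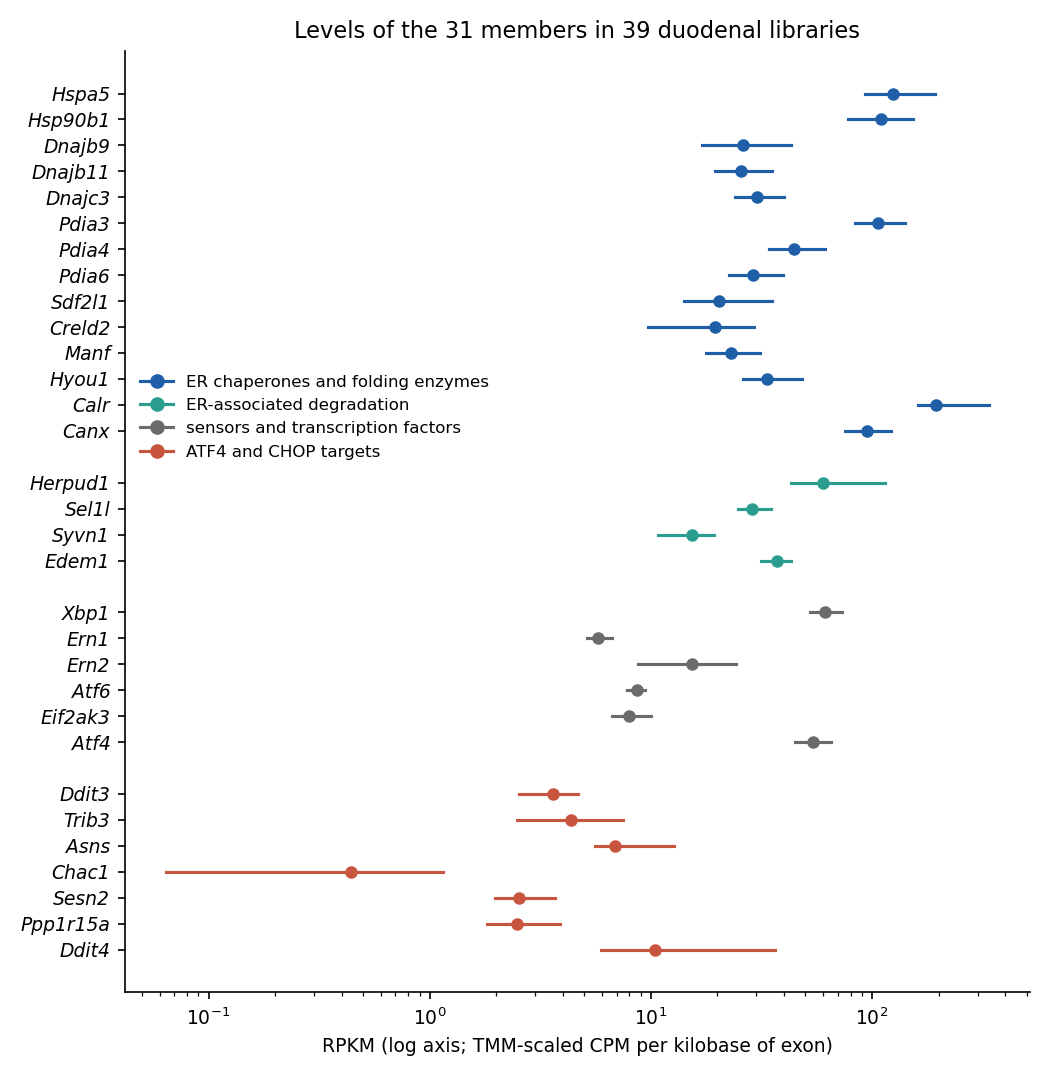
Level of each of the 31 members in RPKM on a log axis, with the point at the median and the line from the lowest to the highest of 39 libraries, coloured by list. Calr is highest at a median of 195 and Chac1 lowest at 0.44, while chaperones such as Creld2 (19.6) lie below Xbp1 (61.6).

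The first question was how leptin in the brain changed these genes in the duodenum within 2 h, taking all 39 libraries with set and antibiotic as terms. By edgeR's quasi-likelihood test with Benjamini-Hochberg adjustment over all genes, 8 of the 31 members passed an adjusted p of 0.05, 7 higher and 1 lower, where 3.01% of all 16358 genes passed, 2.21% higher and 0.795% lower. At an unadjusted p under 0.05, 19 of 31 members passed, against 17.1% of all genes. The 8 comprised 3 of 14 chaperones (Dnajb9, Hspa5, Hyou1) and 3 of 4 genes of ER-associated degradation (Herpud1, Sel1l, Edem1), all higher, and none of the 6 sensors and factors. Of the 7 ATF4 and CHOP targets 2 passed, Ddit4 higher and Ppp1r15a lower. Whether the lists differ in their share of calls was not tested. Because the members were chosen with earlier results of these data known, their share beside that of all genes is a description. The median log2 fold change was 0.11 over the chaperones, 0.12 over the genes of ER-associated degradation, 0.04 over the sensors and 0.01 over the ATF4 and CHOP targets, beside -0.01 over all genes. All 14 chaperones and all 4 genes of ER-associated degradation had a fold change above 0, a direction that 45.2% of all genes shared, although the chaperones vary together from library to library as shown further below.

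Herpud1 (Gencode vM21, chr8:94386438-94395377, plus strand) encodes a membrane protein of the ER that gathers the degradation complex, and it changed most firmly. In set M its CPM (lowest, median, highest) was 105, 120 and 139 in Saline-water and 114, 147 and 183 in Leptin-water. In set MT on water it was 101, 115 and 220 in Saline-water and 142, 181 and 225 in Leptin-water. With antibiotic it was 103, 129 and 157 in saline and 175, 190 and 267 in leptin. The antibiotic groups did not overlap, and on water the groups overlapped, in set MT through a single library, Saline-water 10, which at 220 stood far above the next saline library at 118. Over all libraries Herpud1 rose 1.37-fold (log2 fold change 0.45, SE 0.08, edgeR adjusted p = 0.00103), and 18 of 19 leptin libraries lay above the median of the saline libraries.

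Dnajb9 (chr12:44205559-44210326, minus strand) encodes ERdj4, a co-chaperone of BiP that is a textbook target of XBP1. Its CPM in set M was 46.8, 55.2 and 66.5 in Saline-water and 60.7, 68.5 and 81.8 in Leptin-water. In set MT on water it was 43.6, 56.7 and 103 against 72.5, 78.3 and 110, and with antibiotic 48.6, 58.8 and 81.5 against 66.3, 84.8 and 102, saline first. Every leptin library, 19 of 19, lay above the saline median, and the ranges overlapped in each of the 3 strata. Over all libraries Dnajb9 rose 1.32-fold (log2 fold change 0.40, SE 0.0783, edgeR adjusted p = 0.00314).

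Hspa5 (chr2:34771970-34777547, plus strand) encodes BiP, which also holds the sensors inactive. In set M it had 434, 470 and 537 CPM in Saline-water and 433, 524 and 561 in Leptin-water. In set MT on water it had 392, 465 and 524 CPM in Saline-water and 534, 623 and 776 in Leptin-water, and with antibiotic 478, 548 and 601 in saline and 508, 613 and 811 in leptin. The water groups of set MT did not overlap, while those of set M and of the antibiotic mice did. Over all libraries Hspa5 rose 1.17-fold (log2 fold change 0.22, SE 0.0568, edgeR adjusted p = 0.0201), with 16 of 19 leptin libraries above the saline median. Hyou1, a large chaperone that exchanges nucleotide on BiP, rose 1.13-fold (log2 fold change 0.18, SE 0.0472, edgeR adjusted p = 0.0276), from 234 ± 12.3 to 253 ± 18.1 CPM in set M (SD, n = 8 and 7), and without Leptin-antibiotic 4 it no longer passed (edgeR adjusted p = 0.0518).

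The other 2 called genes of ER-associated degradation moved by little. Sel1l, the adaptor of the HRD1 ubiquitin ligase, rose 1.09-fold (log2 fold change 0.12, SE 0.0314, edgeR adjusted p = 0.0211), and Edem1, a mannosidase-like lectin that marks misfolded glycoproteins, rose 1.08-fold (log2 fold change 0.12, SE 0.0297, edgeR adjusted p = 0.0217). With antibiotic, Sel1l had 219.5, 241 and 251 CPM in saline and 256, 277 and 298 in leptin, with no overlap. In set M Sel1l overlapped almost wholly, at 237 to 267 CPM in Saline-water and 236.5 to 267 in Leptin-water. Its log2 fold change was 0.04 in set M, 0.13 in set MT on water and 0.23 with antibiotic. Syvn1, which encodes the HRD1 ligase, had a log2 fold change of 0.12 (SE 0.0414, edgeR adjusted p = 0.101).

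None of the 6 sensors and transcription factors passed. Xbp1 had medians of 197 and 200 CPM in Saline-water and Leptin-water of set M, 199 and 219 in set MT, and 198 and 200 with antibiotic. Its log2 fold change over all libraries was 0.06 (SE 0.0372, edgeR adjusted p = 0.454). Atf6 (0.05), Eif2ak3 (0.03) and Ern2 (-0.12) also did not pass, and Ern1 came closest among the sensors, at -0.08 (SE 0.0251, edgeR adjusted p = 0.0799).

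**Figure D2:**
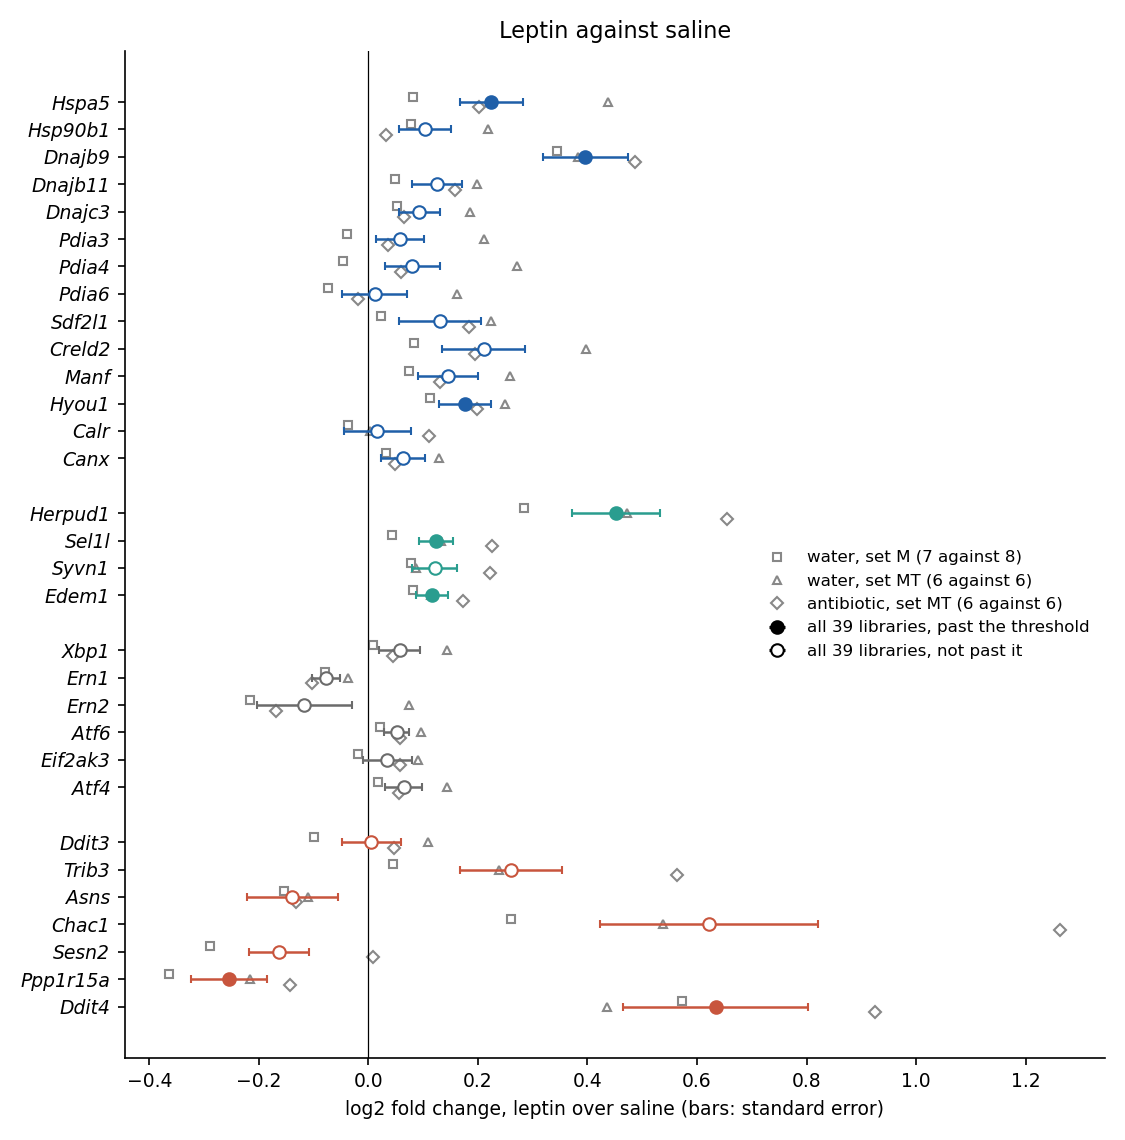
Log2 fold change of leptin over saline for the 31 members. Large points with bars are the estimate and standard error over all 39 libraries, filled where the edgeR adjusted p is under 0.05, and small open symbols are the estimates in the 3 strata. The large points of the chaperones and genes of ER-associated degradation lie right of 0, while 4 chaperones have a negative estimate in set M and 1 with antibiotic, and the large points of the ATF4 and CHOP targets run from -0.25 for Ppp1r15a to 0.63 for Ddit4.

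The ATF4 side did not move as one. Atf4 itself had medians of 123 and 126 CPM in Saline-water and Leptin-water of set M, 120 and 127 in set MT, and 131 and 132 with antibiotic, with overlap in each (log2 fold change 0.06, SE 0.0344, edgeR adjusted p = 0.338). Ddit3, the factor CHOP, had medians of 6.78 and 6.58 CPM in set M, 5.37 and 5.39 in set MT, and 6.09 and 5.86 with antibiotic, and its log2 fold change was 0.01 (SE 0.054, edgeR adjusted p = 0.977). Asns, asparagine synthetase and a classic ATF4 target, had medians of 17.4 and 16.2, 18.1 and 20.4, and 21.5 and 18.8 CPM in the same order, and a log2 fold change of -0.14 (SE 0.0829, edgeR adjusted p = 0.399). None of these 3 passed the test, and in each the groups overlapped.

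Ddit4 (chr10:59949669-59951834, minus strand) encodes REDD1, an inhibitor of mTORC1 that is induced by ATF4 and also by glucocorticoids and hypoxia. Its CPM in set M was 11.5, 12.8 and 27.8 in Saline-water and 15.2, 20.1 and 29.7 in Leptin-water. In set MT on water it was 10.4, 13.4 and 64.1 against 18.3, 26 and 49.5, and with antibiotic 14.3, 15.7 and 18.5 against 21.3, 29.4 and 38.9, saline first. The antibiotic groups did not overlap, and on water 1 saline library in each set, Saline-water 5 and Saline-water 10, lay far above the rest of its group. Over all libraries Ddit4 rose 1.55-fold (log2 fold change 0.63, SE 0.17, edgeR adjusted p = 0.028), with 19 of 19 leptin libraries above the saline median. Without Saline-water 10 the estimate was 0.84 (edgeR adjusted p = 4.05e-05), and without Leptin-water 11 it was 0.58 and no longer passed (edgeR adjusted p = 0.0528).

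Ppp1r15a (chr7:45522916-45526268, minus strand) encodes GADD34, which brings a phosphatase to eIF2 and ends the integrated stress response. It had 7.45, 9.97 and 11.4 CPM in Saline-water and 5.69, 7.1 and 10.1 in Leptin-water of set M. In set MT on water it had 6.78, 8.94 and 10.1 against 5.31, 7.3 and 8.83 CPM, and with antibiotic 6.16, 7.06 and 7.92 against 5.61, 6.42 and 7.2, saline first. Ranges overlapped in each stratum, and 3 of 19 leptin libraries lay above the saline median. Over all libraries it fell by 0.25 on the log2 scale (SE 0.0701, edgeR adjusted p = 0.0337). This call is close to the threshold, and leaving out 1 library at a time kept it in 30 of 39 fits. It was lost without Saline-water 1, 3 or 9, Leptin-water 2, 4, 7 or 12, Saline-antibiotic 5 or Leptin-antibiotic 1, at edgeR adjusted p from 0.0514 to 0.0579.

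The remaining targets did not pass and differed in sign. Sesn2, the leucine sensor sestrin 2, had a log2 fold change of -0.16 (SE 0.0554, edgeR adjusted p = 0.0968), and Trib3, a pseudokinase that feeds back on ATF4, had 0.26 (SE 0.0925, edgeR adjusted p = 0.114). Chac1 had 0.62 (SE 0.199, edgeR adjusted p = 0.0762), from counts of 5 or more per library.

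**Figure D3:**
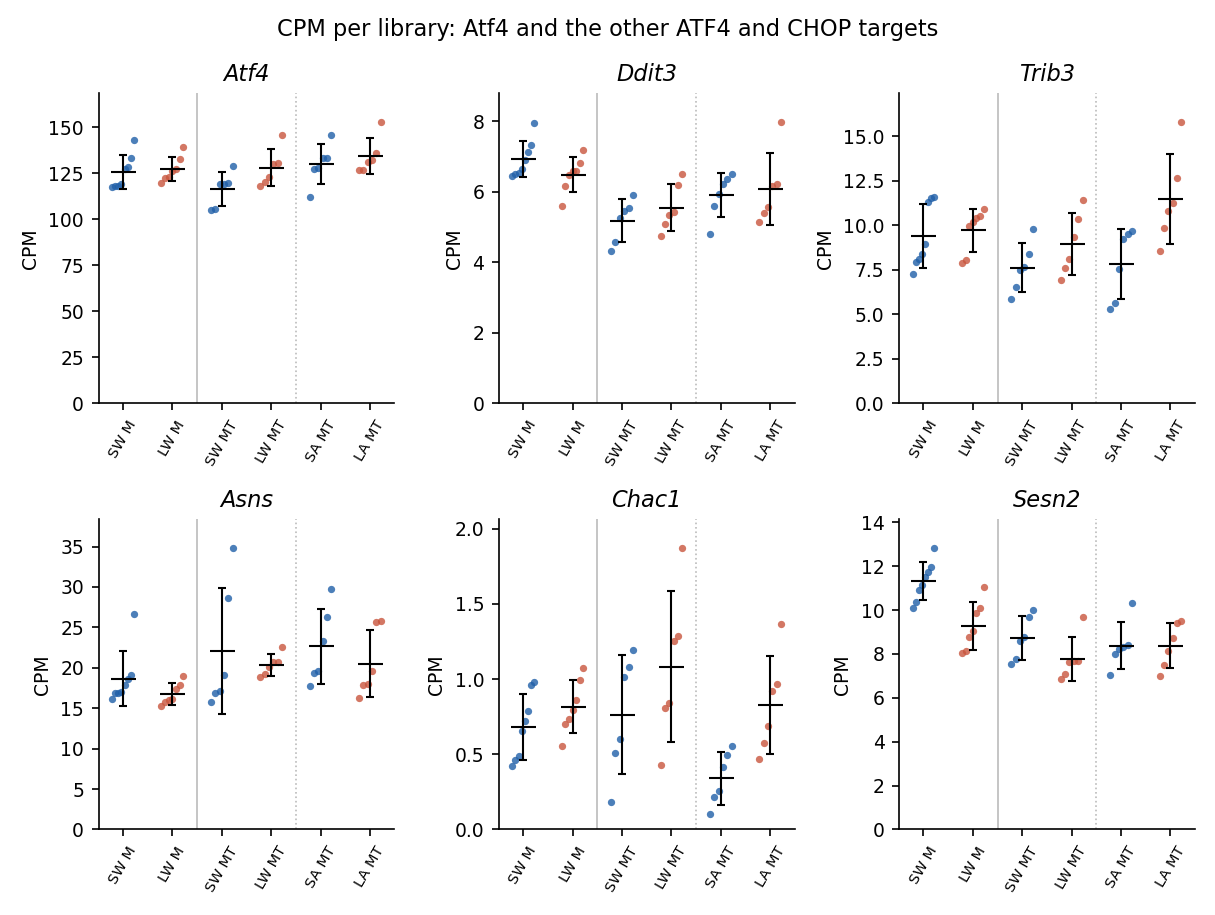
CPM per library of Atf4 and 5 of the ATF4 and CHOP targets, with points for libraries, bars for the mean and SD, blue for saline and red for leptin (SW Saline-water, LW Leptin-water, SA Saline-antibiotic, LA Leptin-antibiotic, in sets M and MT). Atf4, Ddit3 and Asns overlap between saline and leptin in each pair, and Sesn2 is higher in Saline-water of set M than of set MT.

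Leptin estimates for genes of other cell types leaned to 1 sign in some lists. At an unadjusted p under 0.05 there were 0 pancreatic, 0 Paneth cell and 8 enterocyte genes, all 8 higher. Over all libraries 20 of the 22 pancreatic genes had a positive leptin estimate (median log2 1.11) and 15 of 17 enterocyte genes did (median 0.13), with 0 and 1 of them called, while plasma cell genes gave 6 of 9 (median 0.06) and goblet cell genes 8 of 11 (median 0.07) with 0 called. Paneth cell genes went the other way, with 10 of 10 negative (median -0.28) and 0 called. In the 6 libraries rich in pancreatic transcripts, the median CPM of Hspa5 was 1.11 times that of the other 33, that of Dnajb9 0.947 times and that of Herpud1 0.886 times. Over the members this ratio ran from 0.609 for Chac1 to 1.36 for Asns, with Sdf2l1 at 1.32 and Pdia6 at 1.23. These ratios take no account of group, and Saline-antibiotic 1, 2 and 5 are among the 6. Without those 6 libraries 4 members passed: Herpud1 (0.38, edgeR adjusted p = 0.0107), Dnajb9 (0.32, edgeR adjusted p = 0.0387), Ppp1r15a (-0.30, edgeR adjusted p = 0.0315) and Ern1 (-0.10, edgeR adjusted p = 0.0453). Hspa5 then had 0.20 (edgeR adjusted p = 0.0792), Ddit4 0.58 (0.121), Hyou1 0.16 (0.129), Sel1l 0.08 (0.177) and Edem1 0.07 (0.209). With the mean of the pancreatic genes as a covariate and all libraries kept, the same 8 members passed.

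**Figure D4:**
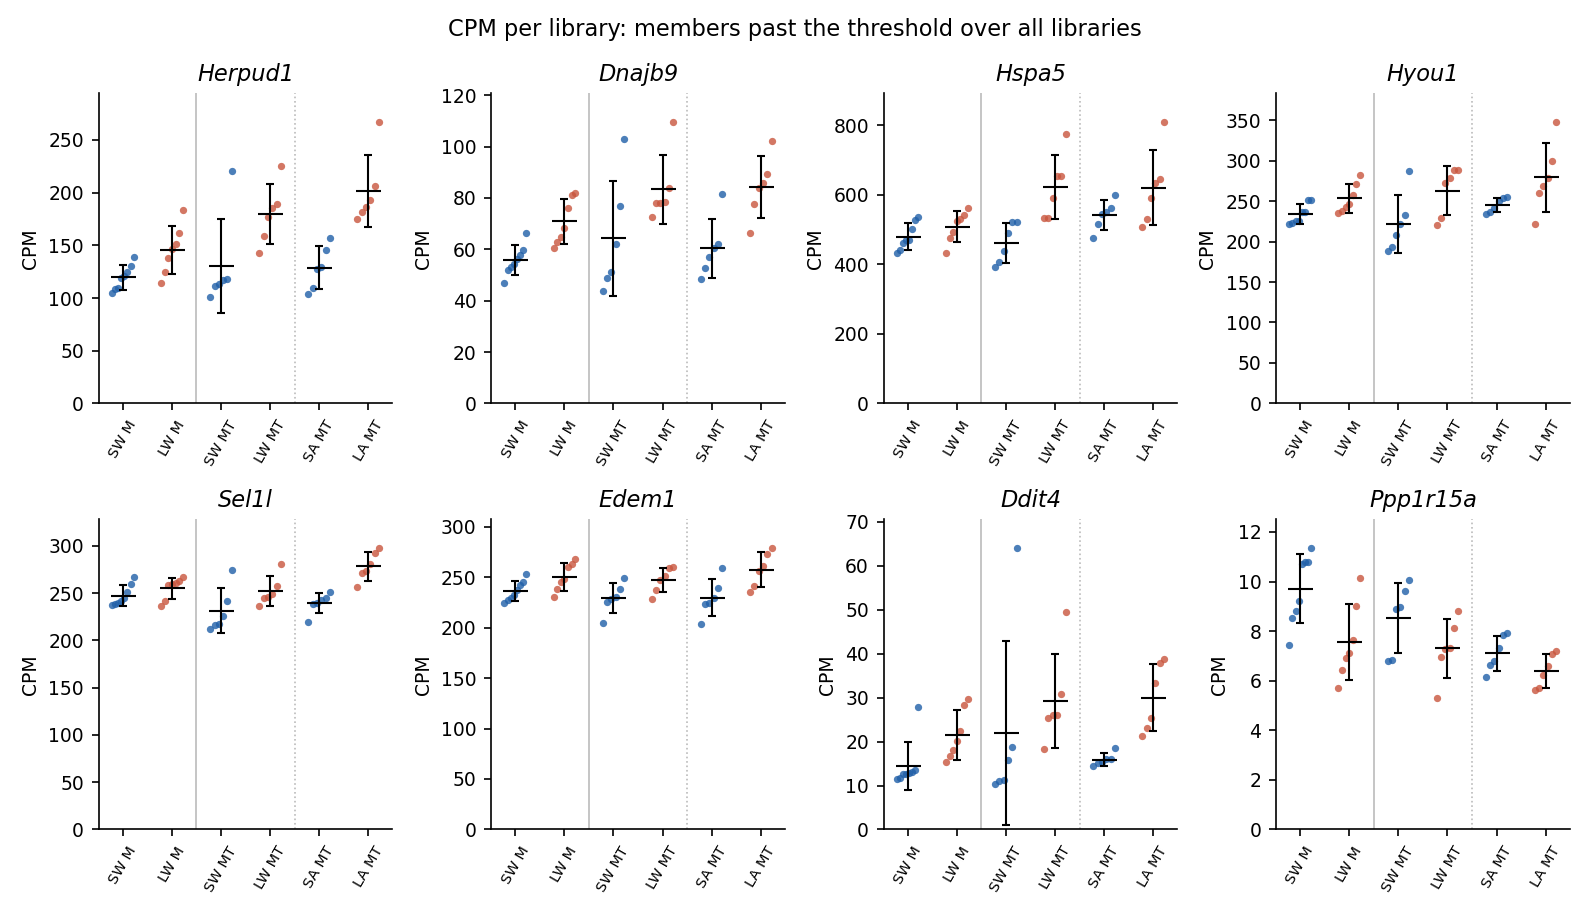
CPM per library of the 8 members past the threshold over all libraries, with points for libraries, bars for the mean and SD, blue for saline and red for leptin, labelled as SW, LW, SA and LA in sets M and MT. The leptin means lie higher for 7 genes and lower for Ppp1r15a, while the libraries overlap in many pairs of groups. The single high saline library of set MT (220 CPM for Herpud1, 64.1 for Ddit4) is Saline-water 10.

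Within each stratum taken alone, no member passed. On water over both sets (27 libraries) edgeR called 0 of 31 members, where 0.312% of all genes passed, and 13 members had an unadjusted p under 0.05 against 11.4% of all genes. DESeq2 called 4 (Dnajb9, Herpud1, Hspa5, Sesn2) and limma voom 3 (Dnajb9, Herpud1, Sesn2). The 3 members of lowest p were Herpud1 (0.37, SE 0.096, edgeR adjusted p = 0.0915), Sesn2 (-0.24, SE 0.0623, edgeR adjusted p = 0.0915) and Dnajb9 (0.36, SE 0.0949, edgeR adjusted p = 0.0921). Without Saline-water 10, edgeR called Herpud1 (0.45, adjusted p = 0.00348), Sesn2 and Ddit4; without Saline-water 13, it called Dnajb9 (0.44, adjusted p = 0.0186), and without Leptin-water 12 it called Sesn2.

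Within set M (7 against 8 libraries) edgeR called 0 of 31 members, with 0.0306% of all genes called, 6 members at an unadjusted p under 0.05 against 14.9% of all genes, 2 by DESeq2 (Dnajb9, Sesn2) and 0 by limma voom. Without Saline-water 5, edgeR called Dnajb9 (0.38, adjusted p = 0.0246) and Ddit4. Dnajb9 (0.34), Sesn2 (-0.29) and Herpud1 (0.28) had the lowest p. Sesn2 had 10.1, 11.3 and 12.8 CPM in Saline-water and 8.04, 9.06 and 11 in Leptin-water, and 6 of the 7 leptin libraries lay below all 8 saline libraries. The chaperones other than Dnajb9 differed by little there, with a median log2 fold change over the 14 of 0.05.

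Within set MT on water (6 against 6) edgeR called 0 of 31 members and 0% of all genes, with 14 members at an unadjusted p under 0.05 against 7.31% of all genes, and 0 by DESeq2 and by limma voom. All 14 were higher in leptin, where 3.84% of all genes were higher at that p, and 10 of them were chaperones, and the chaperone median was 0.22. Hspa5 (0.44, SE 0.109), Herpud1 (0.47, SE 0.157) and the disulfide isomerase Pdia4 (0.27, SE 0.0925) had the lowest p. Pdia4 had 90.2, 101 and 116 CPM in Saline-water and 110, 121 and 143 in Leptin-water, and in set M 92.4, 99.3 and 110 against 82.2, 101 and 106. Without Saline-water 10, edgeR called Herpud1 (0.69, adjusted p = 0.0241) and Ddit4.

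The sets thus gave different estimates for the folding enzymes, and the difference was tested directly. For the leptin effect in set MT less that in set M, edgeR called 0 of 31 members (0.0428% of all genes), as did DESeq2 and limma voom, and 3 members had an unadjusted p under 0.05 against 9.86% of all genes. These were Pdia4 (0.32, SE 0.1, edgeR adjusted p = 0.228), Hspa5 (0.36, SE 0.119, edgeR adjusted p = 0.264) and Pdia3 (0.26, SE 0.104, edgeR adjusted p = 0.386). For Dnajb9 and Herpud1 the difference was 0.05 (SE 0.194) and 0.19 (SE 0.192). Genes of other cell types also had unequal leptin estimates in the sets. Of the 14 genes of Brunner gland and stomach, all 14 were negative in set M and 12 positive in set MT, with 0 called in either, and they had a mean of 6.41 ± 0.43 log2 CPM in Leptin-water against 5.12 ± 0.83 in Saline-water of set MT (SD, n = 6 each), and 5.27 ± 1.51 against 6.27 ± 0.933 in set M (SD, n = 7 and 8). With that mean as a covariate over all libraries the 8 members kept their calls, Hspa5 at 0.23 (edgeR adjusted p = 0.0092). With it the difference between sets was 0.29 for Pdia4, 0.34 for Hspa5 and 0.23 for Pdia3. For the same difference between sets, smooth muscle genes were 10 of 10 negative (median -0.74, 10 at an unadjusted p under 0.05), enteric neuron and glia genes 9 of 10 negative (median -0.87, 8 at that p) and Paneth cell genes 10 of 10 positive (median 0.96, 1 at that p), with 0 called by edgeR. The part of these 3 lists in the members' values was not tested.

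For leptin on antibiotic (6 against 6) edgeR called 0 of 31 members, where 0.514% of all genes passed, and 9 members had an unadjusted p under 0.05 against 17.2% of all genes. DESeq2 called 3 (Herpud1, Sel1l, Trib3) and limma voom 0. Herpud1 had 0.65 (SE 0.157, edgeR adjusted p = 0.0534), Sel1l 0.23 (SE 0.0638, edgeR adjusted p = 0.0875) and Trib3 0.56 (SE 0.17, edgeR adjusted p = 0.108). Trib3 had 5.29, 8.41 and 9.7 CPM in saline and 8.54, 11 and 15.8 in leptin, with 5 of 6 leptin libraries above all 6 saline libraries. All 4 genes of ER-associated degradation had an unadjusted p under 0.05 in this stratum, beside 1 of 14 chaperones (Dnajb9, 0.49). Without Saline-water 10, Saline-water 13 or Saline-antibiotic 6 in the fit, Herpud1 passed (edgeR adjusted p = 0.00772, 0.0433 and 0.0323). Without the 6 libraries rich in pancreatic transcripts the estimates were 0.39 for Herpud1 (edgeR adjusted p = 0.624), 0.34 for Trib3 (edgeR adjusted p = 0.672) and 0.17 for Sel1l (edgeR adjusted p = 0.591), that for Herpud1 then below its 0.47 on water in set MT with all libraries. The 22 pancreatic genes all had negative estimates here (median log2 -1.11), 3 of the 6 libraries rich in them being Saline-antibiotic and 1 Leptin-antibiotic, and 15 of 17 enterocyte genes had positive ones (median 0.29).

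Whether antibiotic changes the response to leptin was tested as the difference between the leptin effects on antibiotic and on water in set MT. By edgeR 0 of 31 members passed, as did 0% of all genes, and 0 members had an unadjusted p under 0.05 against 6.38% of all genes, where DESeq2 also called 0 and limma voom 0. The lowest p were those of Pdia4 (-0.21, SE 0.131), Pdia3 (-0.18, SE 0.11) and Hspa5 (-0.24, SE 0.154). For Herpud1 the difference was 0.18 (SE 0.221) and for Ddit4 0.49 (SE 0.471). At these standard errors smaller differences between the antibiotic and water mice were not detectable.

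Antibiotic against water, over set MT with leptin as a term (12 against 12), called 0 of 31 members by edgeR, while 6.22% of all genes passed, and 7 members had an unadjusted p under 0.05 against 22.5% of all genes. DESeq2 called 0 and limma voom 4 (Dnajb11, Sdf2l1, Sel1l, Syvn1, all higher). Dnajb11, a BiP co-chaperone, had 0.18 (SE 0.0639, edgeR adjusted p = 0.0799), and Sdf2l1, which works with it, had 0.30 (SE 0.104, edgeR adjusted p = 0.0802). Ppp1r15a had -0.22 (SE 0.0821, edgeR adjusted p = 0.113). Without Saline-water 9, whose mean chaperone level of 7.37 log2 CPM was the highest of its group, Dnajb11 (0.21) and Sdf2l1 (0.34) passed. The other libraries whose removal brought a call were Saline-water 10 (Sel1l), Leptin-water 10 (Dnajb11), Leptin-water 12 (Ppp1r15a) and Leptin-antibiotic 1 (Sdf2l1). Dnajb11 had 63.1, 75.4 and 102 CPM in Saline-water and 82.7, 87.9 and 93.6 in Saline-antibiotic, and 78.6, 84.6 and 105 in Leptin-water against 90.5, 93.5 and 114 in Leptin-antibiotic.

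In saline mice alone, antibiotic called 0 of 31 members by edgeR (0.196% of all genes), DESeq2 and limma voom, with 8 members at an unadjusted p under 0.05 against 12.5% of all genes. Chac1 had -1.11 (SE 0.418, edgeR adjusted p = 0.278), at 0.18, 0.808 and 1.19 CPM on water and 0.105, 0.335 and 0.558 on antibiotic, with overlap. Atf4 had 0.17 (SE 0.067, edgeR adjusted p = 0.308) and Pdia3 0.19 (SE 0.078, edgeR adjusted p = 0.318). All 22 pancreatic genes were positive in this contrast (median log2 3.16, 11 at an unadjusted p under 0.05), as were 13 of 14 genes of Brunner gland and stomach (median 0.58, 6 at that p), with 0 called. Without the 6 libraries rich in pancreatic transcripts the median over the 7 ATF4 and CHOP targets was -0.21 in saline mice, against -0.05 with them, and -0.12 over set MT, against 0.03. In leptin mice alone antibiotic also called 0 of 31 members by edgeR (2.28% of all genes), DESeq2 and limma voom, with 3 at an unadjusted p under 0.05 against 18.9% of all genes, namely Sel1l (0.15), Syvn1 (0.19) and Trib3 (0.37). These contrasts share libraries with the leptin contrasts of set MT, so their values are set side by side and not compared.

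Between the sets, with no treatment, 3 of 31 members differed in Saline-water (14 libraries), all lower in set MT. Of all genes 12.2% differed and 6.03% were lower, so the share of members is near the background. CHOP (Ddit3) was lower by a log2 fold change of -0.43 (SE 0.088, edgeR adjusted p = 0.00564), at 4.32, 5.37 and 5.93 CPM in set MT against 6.47, 6.78 and 7.96 in set M, with no overlap. Sesn2 had -0.38 (SE 0.0806, edgeR adjusted p = 0.00663), at 7.54 to 10 CPM in set MT against 10.1 to 12.8 in set M, again with no overlap. Ern2, the IRE1 form of mucus-secreting epithelium, had -0.45 (SE 0.101, edgeR adjusted p = 0.00864), at 33 to 47.4 CPM in set MT against 46.4 to 71.7 in set M. Brunner gland and stomach genes were lower in set MT too (all 14 negative, 2 called, median log2 -0.77), as were 7 of 11 goblet cell genes (2 called) and 14 of 17 enterocyte genes (2 called). Enteric neuron and glia genes were higher in set MT in 8 of 10 (5 called, median 0.54). With the Brunner gland and stomach mean as a covariate 1 member, Ddit3, passed, and Ern2 had -0.28 (edgeR adjusted p = 0.114) and Sesn2 -0.36 (edgeR adjusted p = 0.057). The set cannot be told apart from whatever else differed between these libraries.

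The last question was which members vary together from library to library, once the mean of each group and set is taken out of the log2 CPM. The measure was Pearson's r over 39 libraries, with a permutation test of 100000 resamples adjusted over all 16357 other genes. Hspa5 was followed by the folding branch: 10 of the 13 other chaperones passed, with r from 0.72 to 0.87, where 0.831% of all genes passed. The 7 genes of highest r among all 16357 were members, in the order Creld2, Dnajc3, Pdia4, Dnajb11, Hsp90b1, Sdf2l1 and Hyou1. Creld2, an ER protein disulfide isomerase, had r = 0.867 (Spearman's rho 0.891, permutation adjusted p = 0.00629 for r), and 0.846 without the 2 libraries farthest from the Hspa5 median. Dnajc3, the co-chaperone p58IPK, had r = 0.862 (rho 0.845, permutation adjusted p = 0.00629), and 0.814 without those 2. Both held within set M (0.781 and 0.808), within set MT (0.888 and 0.893) and without the 6 libraries rich in pancreatic transcripts (0.861 and 0.886). The lowest unadjusted p that these permutations can give is 1e-05.

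Not every member followed. Among the chaperones Canx (r = 0.495, rho 0.499, permutation adjusted p = 0.0818), Calr (r = 0.273, rho 0.462, permutation adjusted p = 0.414) and Dnajb9 (r = 0.012, rho 0.001, permutation adjusted p = 0.981) did not pass. Xbp1 was the only one of the 6 sensors and factors to pass (r = 0.582, rho 0.621, permutation adjusted p = 0.0234), and r was 0.552 in set M and 0.621 in set MT. Sel1l (0.501), Edem1 (0.496) and Ppp1r15a (0.496) missed the threshold, and Atf4 (-0.093), Ddit3 (-0.020) and Trib3 (-0.348) were at or below 0. So Dnajb9, with the second lowest p for leptin, varied within groups with no measurable relation to Hspa5.

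With Asns as the reference, 6 of the 30 other members passed, all with r above 0. Of all genes 14% passed, and 8.14% passed with r above 0. Whether the members' share differs from that of all genes was not tested. The 6 members were Calr (r = 0.613, rho 0.483), Pdia3 (0.581, rho 0.498), Pdia6 (0.548, rho 0.53), Sesn2 (0.534, rho 0.508), Pdia4 (0.509, rho 0.482) and Canx (0.509, rho 0.327), all with a permutation adjusted p for r between 0.00347 and 0.0179. Sesn2 was the only ATF4 or CHOP target among them, and its r was 0.544 without the 2 libraries farthest from the Asns median, Saline-water 9 and Saline-water 6. Its r was 0.165 in set M and 0.656 in set MT, so the relation did not hold within set M. For Canx r fell to 0.180 without those 2 libraries, so that relation rests on them.

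Herpud1 was added as a reference after its values were seen, and its correlations are given as a description. Over the 39 libraries it stood apart from the chaperones, with r between -0.08 and 0.28 for all 14. The sets differed in this. Within set M, r with the 14 ran from -0.55 (Hyou1) to 0.09 (Dnajc3). Within set MT it ran from -0.01 (Hsp90b1) to 0.33 (Dnajb9). The highest r of Herpud1 was with Ddit4, at 0.785 (rho 0.632), 0.607 in set M and 0.836 in set MT. Without Saline-water 10 and Leptin-antibiotic 3, the 2 libraries farthest from the Herpud1 median, r with Ddit4 was 0.643, and without the 6 libraries rich in pancreatic transcripts it was 0.824. Sel1l followed at 0.534 (rho 0.351), which fell to 0.264 without those 2 libraries, and Sesn2 was lowest at -0.469 (rho -0.448).

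**Figure D5:**
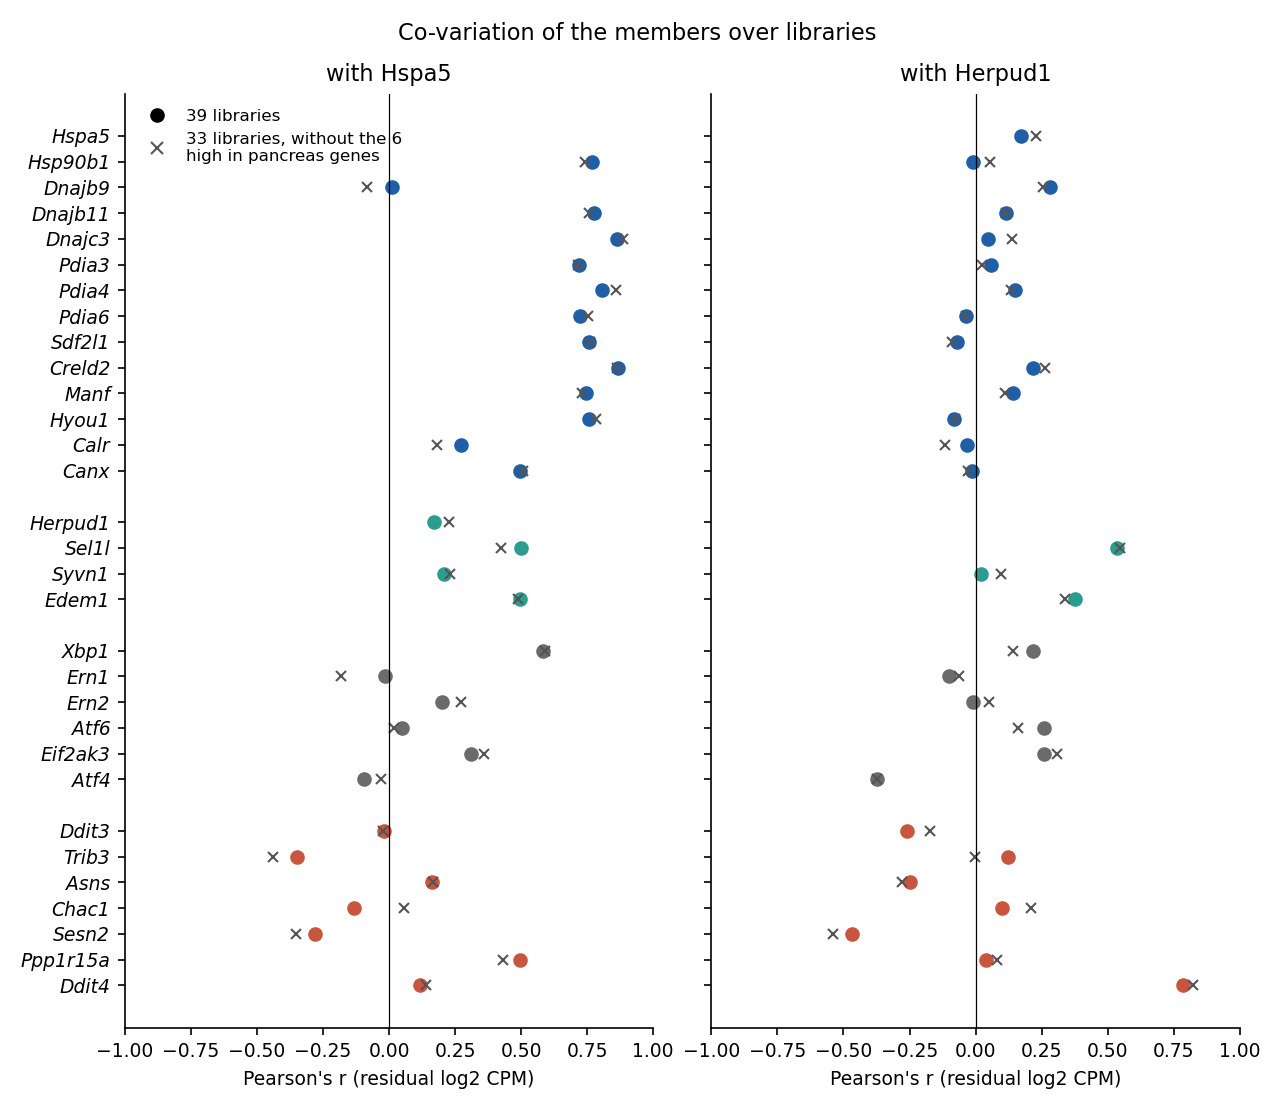
Pearson's r of each member with Hspa5 (left) and with Herpud1 (right) over 39 libraries after removing group and set means, as coloured points, and over the 33 libraries not rich in pancreatic transcripts, as crosses. Most chaperones sit between 0.72 and 0.87 with Hspa5 and near 0 with Herpud1, while Ddit4 stands at 0.785 with Herpud1.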

How the data were processed

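Duodenal RNA (150 ng a library, ribosomal RNA removed, strand kept) was read as pairs of 50 bases, per the labels' protocols. The authors deposited raw counts, 1 row per gene symbol, for 16358 genes in 39 libraries. Per the submitters' processing notes the tools were HISAT2, featureCounts, FastQC and edgeR 3.42.0, on mm10. The rule behind the deposited filter, the annotation and the strand setting were not found in the sources.

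Tests used edgeR 4.0.16 in R 4.3.3 (glmQLFit and glmQLFTest, TMM factors, filterByExpr on group and set) with Benjamini-Hochberg adjustment over all genes and a threshold of 0.05. A standard error is the absolute log2 fold change divided by the root of F. CPM are TMM-scaled, log2 CPM use a prior count of 2, and RPKM use exon lengths of GENCODE vM21. Correlations were adjusted over all genes, not over the 30 other members as first planned. Set entered each fit of both sets, and the contrasts within set MT came from a single fit of its 24 libraries. Of 109 library pairs of the same set and group 0 were identical, with a chi-square per degree of freedom of 19.7 or more.

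The members and lists were chosen with earlier results of these data known. Named are 5 fixed members (Hspa5, Xbp1, Atf4, Ddit3, Asns), in each comparison the members past the threshold and the 3 of lowest p, and up to 4 other pathway genes in each direction. Any further gene named was chosen after its values were seen, as were the Brunner gland and stomach covariate and Herpud1 as a correlation reference. Alternatives were DESeq2 1.42.0, limma 3.58.1 (voom with quality weights), other scaling factors, no filter, a replicate block, and leaving out or adjusting for pancreatic transcripts or single libraries. The fits were tested on simulated data.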

Additional observations from a re-analysis of the deposited data

Results flagged for a closer look

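In groups of 4 to 10 libraries, a library was noted where its gap to the next one took an unusually large share of the group's range (Dixon's 95% limit). This held for 11 of 186 groups of a member, a set and a treatment, and chance gives about 1 in 20. All 11 were the highest library of their group. Saline-water 10 was noted for Herpud1 (220 CPM, the next library of its group at 118) and for Ddit4 (64.1 CPM, the next at 18.8), and Saline-water 5 for Ddit4 (27.8 CPM, the next at 13.5). Leptin-antibiotic 3 was noted for Herpud1 (267 CPM), Leptin-water 10 for Dnajb9 (109.7 CPM) and Leptin-antibiotic 4 for Hsp90b1 (618 CPM). Leptin-antibiotic 2 was noted for Atf4 (153 CPM) and Ddit3 (7.99 CPM), the factor CHOP. Saline-water 9 was noted for Canx (572 CPM), Saline-water 6 for Asns (26.7 CPM) and Leptin-water 12 for Sesn2 (9.69 CPM). Leptin-antibiotic 3 and Leptin-water 10 are among the 6 libraries rich in pancreatic transcripts.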

How the results depend on the processing

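Leptin over all libraries gave 8 members by edgeR, 9 by DESeq2, 11 by limma voom and 4 without the 6 libraries rich in pancreatic transcripts, and 7 to 9 when single libraries were left out. Herpud1 and Dnajb9 passed in all 8 alternatives and all 39 fits with 1 library left out. Ppp1r15a passed in all 8 alternatives and 30 of 39 such fits, and Hspa5, Sel1l and Edem1 in 7 of 8 and all 39. Ddit4 and Hyou1 passed in 7 of 8 and 38 of 39. Where edgeR called 0 members, DESeq2 called 4 for leptin on water, 2 in set M and 3 on antibiotic, and limma voom called 3 for leptin on water and 4 for antibiotic over set MT. For the sets in Saline-water, limma voom called 5 members and the Brunner gland and stomach covariate left 1, against 3. Leaving out single libraries gave 0 to 3 members for leptin on water, 0 to 2 in set M, in set MT and on antibiotic, 0 to 2 for antibiotic over set MT, 3 to 4 between the sets, and 0 for the 4 other contrasts. The cause of these shifts was not tested, and the fits with libraries left out also hold fewer samples. No result changed sign with a call.

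Counts over all genes moved more. With 1 library left out they ran from 10 to 147 for leptin on water (51 with all), 0 to 130 in set M (5), 0 to 10 in set MT (0), 9 to 183 on antibiotic (84), 14 to 100 and 73 to 650 for antibiotic in saline and leptin mice (32 and 372), 373 to 742 for leptin over all libraries (492), 610 to 1296 for antibiotic over set MT (1016) and 0 to 36 for the difference between sets (7). Over the alternatives the ranges were 0 to 173, 0 to 277, 0 to 5, 0 to 443, 16 to 183, 205 to 1394, 295 to 698, 873 to 2317 and 0 to 149 in that order, and 723 to 2738 between the sets (1997).

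Replicate numbers did not pair the libraries. Same-numbered deviations correlated above 0.1 in 3 of 7 pairs of set M, 0 of 5 of set MT on water and 1 of 6 with antibiotic, and 1, 0 and 1 libraries correlated best with their own number. With the replicate block, leptin on antibiotic called 1 member (Ddit4) and leptin on water 0. Antibiotic and water libraries of set MT share no numbers, so no block could be fitted for those contrasts. Chac1, with counts from 5, is the member that depth limits most.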

Other observations

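Further genes of the same pathways, 122 in the table, were read from lists of ER folding and secretion (46), ER-associated degradation (17), regulators (23) and ATF4 targets (36). Over all libraries leptin changed 6 of them by edgeR, 5 higher and 1 lower, where 3.01% of all genes passed. Hspa13, an ATPase of the ER related to BiP, rose (log2 fold change 0.17, SE 0.0417, edgeR adjusted p = 0.0196), as did Mcfd2, a cargo receptor subunit (0.15, edgeR adjusted p = 0.0227), Ero1l, the oxidase that recharges the disulfide isomerases (0.17, edgeR adjusted p = 0.0238), Derl1, a channel component of ER-associated degradation (0.11, edgeR adjusted p = 0.0416), and the factor Cebpd (0.35, edgeR adjusted p = 0.0325). Cebpb, a partner of ATF4, was lower (-0.20, SE 0.0573, edgeR adjusted p = 0.0426). None of the 36 other ATF4 targets passed, and their median was -0.03, with 13 of 36 above 0. The other genes of ER-associated degradation had 16 of 17 above 0, with a median of 0.06.

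Antibiotic over set MT changed 12 of the 122 by edgeR, 11 higher and 1 lower, while 0 of the 31 members passed and 6.22% of all genes did. Wfs1, a membrane protein of the ER linked to Wolfram syndrome, rose (0.30, SE 0.0509, edgeR adjusted p = 0.000814), as did the translocation subunit Sec62 (0.19, edgeR adjusted p = 0.0159), the lectin Os9 of ER-associated degradation (0.24, edgeR adjusted p = 0.017) and the coat subunit Sec23b (0.18, edgeR adjusted p = 0.0207). Aldh18a1, an enzyme of proline synthesis, was lower (-0.25, edgeR adjusted p = 0.0305). In leptin mice alone Wfs1 (0.32), Os9 (0.32) and the amino acid transporter subunit Slc3a2 (0.39) passed. Enterocyte genes moved with antibiotic too, with 13 of 17 above 0 and 4 called higher, as did 10 of 10 smooth muscle genes with 2 called and 22 of 22 pancreatic genes with 0 called; their part in these values was not tested.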
